A study of Rattus norvegicus with 39 samples.

Results

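The genes described here encode 10 enzymes that make fatty acids in the rat liver and then lengthen or desaturate them: Pklr, Acly, Acss2, Me1, Acaca, Fasn, Elovl6, Scd, Fads1 and Fads2. They were taken by symbol from the platform's gene annotation, and the set was proposed with earlier results of these data known. All 10 were measured among 14217 genes. They have 15 of the 20826 probe sets that carry 1 gene symbol. Expression was measured with Affymetrix GeneChip Rat230 version 2 arrays in the left lateral liver lobe of 39 rats, 1 array per rat. The rats were 5 to 6 weeks old, and the livers were taken 48 h after treatment. Strain and sex are not given in the labels used here. Compounds are named as the labels write them, with rosiglitazone as Roziglitazone.

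Each compound group held 5 rats. ANIT was given by mouth at 125 mg/kg in corn oil. Caerulein was injected intraperitoneally at 50 µg/kg in saline. DMN and DNP were both given by mouth in water, at 15 mg/kg each. NMF was injected intraperitoneally at 1000 mg/kg in saline. Roziglitazone was given by mouth at 1000 mg/kg in methylcellulose. The 9 control rats were untreated and had no vehicle, so effects of compound, vehicle and route cannot be told apart in any comparison with them. In liver toxicology ANIT, DMN and NMF usually stand for alpha-naphthylisothiocyanate, dimethylnitrosamine and N-methylformamide, all known to injure the liver.

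When carbohydrate is plentiful, the liver turns it into fatty acids. Pyruvate kinase feeds mitochondria with pyruvate, citrate carries the carbon back to the cytosol, and acetyl-CoA is built up into palmitate, which is then lengthened, desaturated and esterified. The transcription factors SREBP-1c, driven by insulin, and ChREBP, driven by glucose, are known to raise most of these genes together, and polyunsaturated fatty acids are known to lower them.

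Levels are log2 intensities, and group values are means ± SD. Each fold change is a difference of log2 means with its standard error (SE) from a limma fit to all 39 arrays. A gene was called at a Benjamini-Hochberg adjusted p under 0.05 over all 14217 genes. In whole liver, fewer cells of a type and less RNA per cell cannot be told apart. The 7 measured hepatocyte markers of 8 listed, such as Alb and Ttr, averaged between 12.70 and 13.35 on every array, and none was called lower in any comparison. Alb, at 14.41 to 14.46 in the group means, lay near the top of the measured intensities, where a fall may go unseen. Hnf4a, at 11.46 to 12.11, lay lower on the scale. The adipocyte hormone gene Adipoq was at 5.43 to 6.47 in the group means. Of the 5 adipocyte markers measured, 1 was called lower in ANIT, 2 in DMN and 1 in NMF, and none was called higher against controls.

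ANIT 3 and Roziglitazone 2 had labels that stood against their profiles over all genes, and DMN 2 was unlike its own group. The 3 are called the doubted arrays below. The array labelled ANIT 3 correlated at 0.301 with the other ANIT arrays and at 0.705 with DMN, each as deviation from the mean of the other arrays. Roziglitazone 2 correlated at -0.303 with its own group and at 0.802 with ANIT. DMN 2 correlated at 0.003 with its own group. Only 15 of 39 arrays were closest to their own group by this measure, so a closer match elsewhere does not by itself single these arrays out. The size of the match did set Roziglitazone 2 and ANIT 3 apart. Their 0.802 and 0.705 were the highest correlations of any array with a group other than its own. DMN 2 reached only 0.12 with its closest group, Roziglitazone, so its profile pointed to no other label. Roziglitazone 1 (-0.221), control 5 (-0.086) and DNP 1 (-0.061) correlated even less with their own groups and were not counted as doubted. Separately, 6 arrays (DMN 3, DNP 1, NMF 3, Roziglitazone 1, control 4 and control 5) had low signal for the 5′ end of GAPDH, at 6.34 to 7.42 against 10.49 to 12.93 elsewhere. All arrays were kept. Without the 6 arrays, 3 members were called in ANIT, 8 in DMN and 8 in NMF livers against controls, all lower, and the calls so lost were Elovl6 in ANIT, Fasn in DMN, and Elovl6 and Me1 in NMF. Of all 14217 genes, 1711 were then called lower in ANIT, 536 in DMN and 595 in NMF (1179, 644 and 516 with all arrays).

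The promoters of 7 of the 10 genes were matched by symbol in RefSeq (build GRCr8), from 250 bases before the start of the gene to 50 after it. Those of Pklr, Scd, Acss2, Acly and Fads1 are shown because Pklr alone holds a ChoRE match, Acss2, Acly and Fads1 are the 3 with a CCAAT box, and Scd, with the largest fall in NMF livers, has no match. Capitals mark motif matches, and everything else is in lower case, 5′ to 3′ on the strand of the gene. They lie at chr2:176841014-176841313 on the plus strand (Pklr), chr1:253231682-253231981 on the minus strand (Scd), chr3:164464453-164464752 on the plus strand (Acss2), chr10:85963582-85963881 on the minus strand (Acly) and chr1:216252442-216252741 on the plus strand (Fads1).
Pklr: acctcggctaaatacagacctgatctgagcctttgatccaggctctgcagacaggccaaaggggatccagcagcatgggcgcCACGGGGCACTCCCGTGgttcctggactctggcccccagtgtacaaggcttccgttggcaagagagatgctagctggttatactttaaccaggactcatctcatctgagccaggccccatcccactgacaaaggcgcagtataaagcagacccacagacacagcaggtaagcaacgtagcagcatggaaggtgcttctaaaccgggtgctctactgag
Scd: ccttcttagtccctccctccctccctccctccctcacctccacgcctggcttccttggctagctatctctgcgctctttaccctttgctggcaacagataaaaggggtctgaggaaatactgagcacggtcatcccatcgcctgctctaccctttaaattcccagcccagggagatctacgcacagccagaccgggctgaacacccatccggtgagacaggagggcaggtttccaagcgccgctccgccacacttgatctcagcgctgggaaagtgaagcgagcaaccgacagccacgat
Acss2: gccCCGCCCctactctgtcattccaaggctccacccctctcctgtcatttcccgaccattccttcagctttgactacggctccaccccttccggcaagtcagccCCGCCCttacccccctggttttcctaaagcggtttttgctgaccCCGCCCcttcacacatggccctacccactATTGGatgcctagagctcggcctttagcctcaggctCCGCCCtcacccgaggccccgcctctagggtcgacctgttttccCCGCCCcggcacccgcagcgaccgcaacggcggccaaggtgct
Acly: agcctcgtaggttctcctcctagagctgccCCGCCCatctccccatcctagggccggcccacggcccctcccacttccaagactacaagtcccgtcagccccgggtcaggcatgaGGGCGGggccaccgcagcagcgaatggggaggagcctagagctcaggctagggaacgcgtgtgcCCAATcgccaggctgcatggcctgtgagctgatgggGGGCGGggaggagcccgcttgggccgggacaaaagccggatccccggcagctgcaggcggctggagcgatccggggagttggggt
Fads1: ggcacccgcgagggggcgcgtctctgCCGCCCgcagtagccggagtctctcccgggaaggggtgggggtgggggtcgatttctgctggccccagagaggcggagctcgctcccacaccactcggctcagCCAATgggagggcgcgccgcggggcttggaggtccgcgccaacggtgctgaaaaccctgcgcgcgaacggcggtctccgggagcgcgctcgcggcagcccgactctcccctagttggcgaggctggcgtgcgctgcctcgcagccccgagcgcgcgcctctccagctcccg

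Both strands were searched for 5 motifs, each only in the spelling given here. No promoter of Fasn, Acaca or Elovl6 was matched, so these genes were not searched. The carbohydrate response element, searched as CACGGG and CCCGTG with 5 bases between them, was found in the Pklr promoter as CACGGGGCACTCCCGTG, 168 bases before the start, and in no other of 33469 rat promoters (0.00299%). That spelling was chosen knowing the rat Pklr element, so the match is a description of where it lies. A CCAAT box (CCAAT) was present in Acly, Acss2 and Fads1, 3 of 7 members, against 37.5% of all promoters. A GC box (GGGCGG) was present in 5 of 7 against 33.1%, with 5 copies each in Acss2 and Me1, 3 in Acly and 1 each in Fads1 and Fads2. The sterol response element TCACNCCAC (1.12% of promoters) and the E-box CACGTG (6.42%) were not in these windows for any of the 7, and Scd had no match to any of the 5 motifs. The CCAAT box and the GC box did not overlap in these promoters.

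In NMF livers all 10 genes were lower than in untreated livers, against 3.63% of all genes called lower. The median log2 fold change of the members was -1.56 and that of all genes was -0.05, and 6 members were called without NMF 5. In DMN livers 9 of 10 were lower, against 4.53% of all genes, with medians of -1.50 and -0.06. In ANIT livers 3 were lower and 1 was higher, against 8.29% and 8.19% of all genes, with medians of -0.43 and -0.09. In the livers given Caerulein, DNP or Roziglitazone no member was called, and limma called 0% of all genes in each. The averages over the 10 genes, each taken relative to its control mean, lay between -2.24 and -1.63 in the NMF arrays, -2.93 and -0.55 in DMN, -1.92 and 0.16 in ANIT, and -0.37 and 0.33 in the controls.

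**Figure D1:**
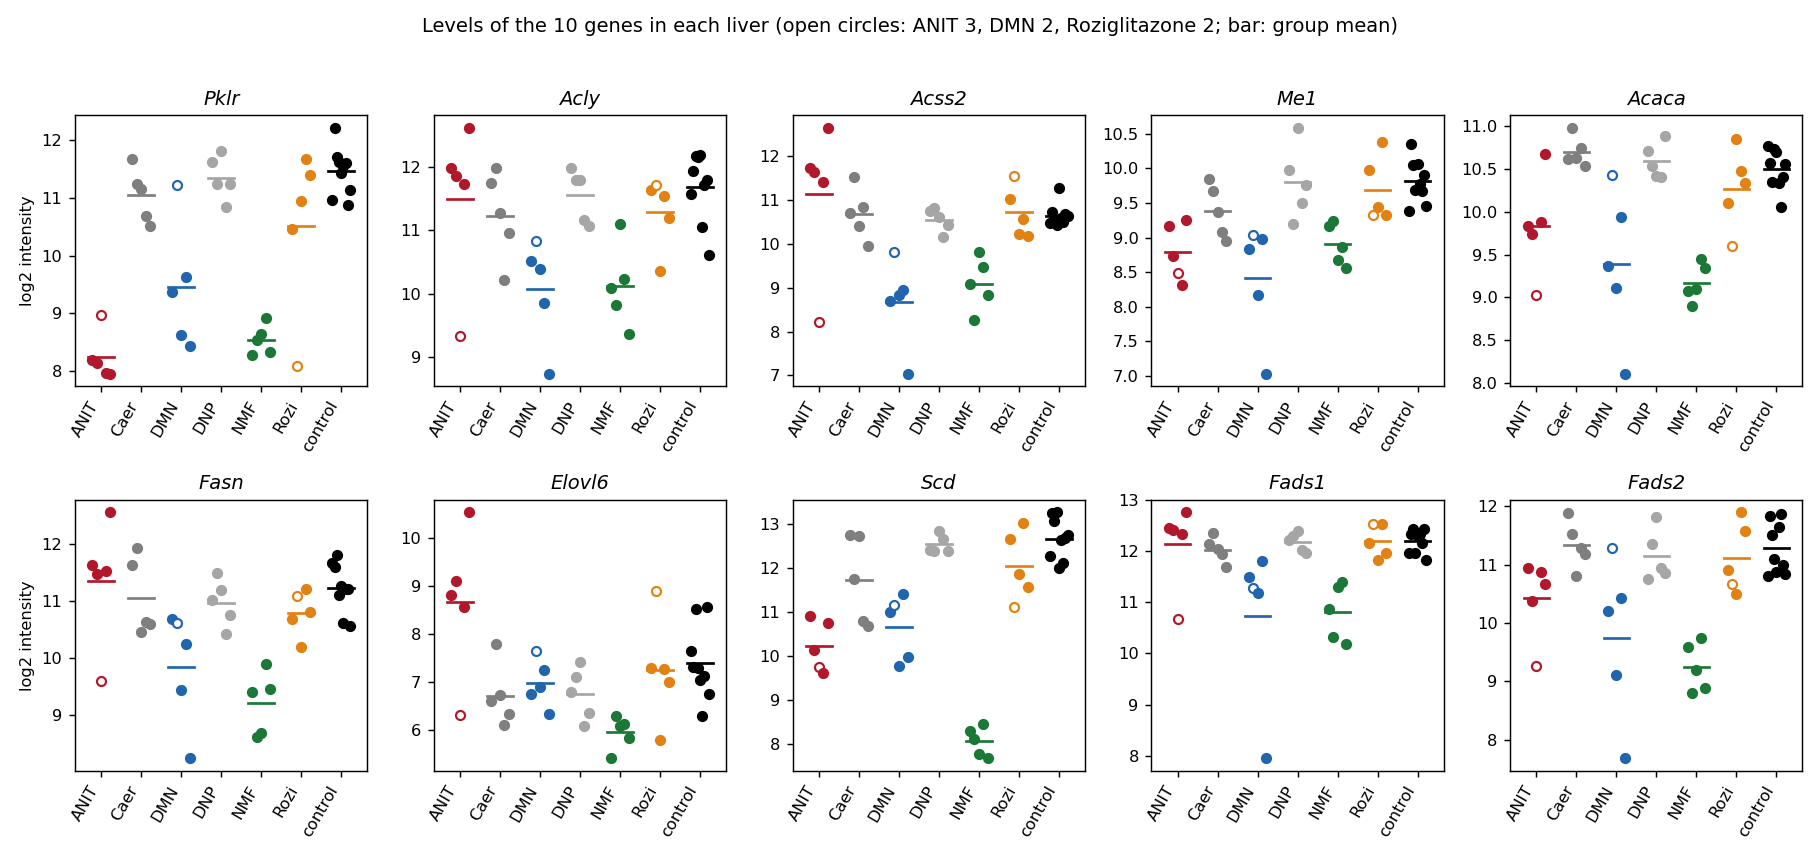
Level of each of the 10 genes in log2 intensity (vertical axis, own scale per gene) in every liver, by group (horizontal axis; Caer is Caerulein and Rozi is Roziglitazone). Points are arrays, bars are group means, and open circles are the arrays labelled ANIT 3, DMN 2 and Roziglitazone 2; the Scd points of NMF, between 7.68 and 8.46, lie below every other array.

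The desaturase Scd, which puts a double bond into stearate and palmitate, changed most of the 10 genes in NMF livers. These had Scd at 8.30, 8.11, 7.77, 8.46 and 7.68, against 12.01 to 13.27 with a median of 12.68 in controls. The groups did not overlap, and no array of any other group came below 9.61. The fall was 24.4-fold in limma (-4.61 ± 0.33 SE, adjusted p = 1.01e-12), and the adjusted p stayed at or below 2.84e-09 in 25 alternatives.

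Scd also fell in the other toxicant groups. ANIT livers had 10.92, 10.14, 9.75, 9.61 and 10.76, and DMN livers had 11.01, 11.17, 9.78, 11.40 and 9.99, all below the lowest control. The falls were 5.41-fold in ANIT (-2.44 ± 0.33 SE, adjusted p = 4.61e-06) and 4.01-fold in DMN (-2.0 ± 0.33 SE, adjusted p = 9.31e-05). Among the groups given other compounds, Scd averaged 11.74 ± 1.0 in Caerulein, 12.54 ± 0.21 in DNP and 12.04 ± 0.78 in Roziglitazone livers (SD, n = 5 each), against 12.67 ± 0.47 in controls (n = 9). The Caerulein arrays split, with 12.75, 11.76 and 12.72 in replicates 1 to 3 and 10.79 and 10.69 in replicates 4 and 5. The Caerulein difference of -0.93 had an unadjusted limma p of 0.00733 and an adjusted p of 0.994.

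Pklr, the pyruvate kinase of liver and red cells, marks the last step of glycolysis. ANIT livers had 8.19, 8.13, 8.96, 7.97 and 7.95, and NMF livers had 8.27, 8.53, 8.64, 8.91 and 8.33, against 10.87 to 12.22 with a median of 11.55 in controls. Neither group overlapped the controls, and the 10 values of the ANIT and NMF arrays lay between 7.95 and 8.96. Pklr fell 9.31-fold in ANIT (-3.22 ± 0.38 SE, adjusted p = 7.91e-07) and 7.56-fold in NMF (-2.92 ± 0.38 SE, adjusted p = 1.68e-06).

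DMN livers had Pklr at 9.36, 11.23, 8.63, 9.63 and 8.43. The array labelled DMN 2 was within the control range, and the others were below it. The fall was 4.00-fold (-2.0 ± 0.38 SE, adjusted p = 0.000539). Pklr is the gene with the carbohydrate response element shown above, and its other probe set was also called lower in the ANIT, DMN and NMF groups, at -2.18, -1.54 and -1.92.

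Acly splits citrate into acetyl-CoA and oxaloacetate in the cytosol. DMN livers had 10.52, 10.84, 10.39, 9.85 and 8.74, and NMF livers had 10.09, 9.82, 11.10, 10.24 and 9.37, against 10.61 to 12.19 with a median of 11.80 in controls. One array of each group, DMN 2 and NMF 3, reached into the control range. Acly fell 3.08-fold in DMN (-1.62 ± 0.38 SE, adjusted p = 0.00443) and 2.96-fold in NMF (-1.57 ± 0.38 SE, adjusted p = 0.00669).

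Acss2 makes acetyl-CoA from acetate. DMN livers had 8.69, 9.82, 8.84, 8.95 and 7.04, and NMF livers had 9.08, 8.27, 9.81, 9.47 and 8.83, against 10.43 to 11.27 with a median of 10.58 in controls. All 10 DMN and NMF arrays were below every control. Acss2 fell 3.91-fold in DMN (-1.97 ± 0.42 SE, adjusted p = 0.00174) and 2.92-fold in NMF (-1.55 ± 0.42 SE, adjusted p = 0.0165). The NMF call was lost without NMF 2 (adjusted p = 0.0716) or NMF 5 (0.0504), over a range of 7.92e-06 to 0.0716 in 25 alternatives.

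Me1, the malic enzyme that supplies NADPH for the synthesis, averaged 8.79 ± 0.41 in ANIT, 8.41 ± 0.85 in DMN and 8.90 ± 0.30 in NMF livers (SD, n = 5 each), against 9.82 ± 0.31 in controls (n = 9). No array of these groups overlapped the controls, whose lowest was 9.38. It fell 2.04-fold in ANIT (-1.03 ± 0.26 SE, adjusted p = 0.005), 2.65-fold in DMN (-1.41 ± 0.26 SE, adjusted p = 0.000313) and 1.89-fold in NMF (-0.92 ± 0.26 SE, adjusted p = 0.02). A dimmer probe set of Me1 gave 0.19 in ANIT, -0.91 in DMN and -1.16 in NMF and was called in none, and the NMF call was lost without NMF 5 (adjusted p = 0.075) or without the 6 arrays low in GAPDH 5′ signal (0.0779; range 0.00321 to 0.0779 in 26 alternatives).

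Acaca makes malonyl-CoA, the committed step. NMF livers had 9.07, 8.90, 9.10, 9.45 and 9.34, and DMN livers had 9.37, 10.43, 9.11, 9.94 and 8.11, against 10.06 to 10.77 with a median of 10.56 in controls. The NMF arrays were all below the controls, while DMN 2 was among them. Acaca fell 2.51-fold in NMF (-1.33 ± 0.24 SE, adjusted p = 0.000225) and 2.15-fold in DMN (-1.11 ± 0.24 SE, adjusted p = 0.00192). Its dimmer probe set, at about 7 on average, gave -0.19 in NMF and -0.12 in DMN and was not called. In ANIT the difference of -0.67 had an adjusted p of 0.0505 and was not called.

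Fasn, the synthase that builds palmitate, had 9.40, 8.62, 8.69, 9.90 and 9.45 in NMF livers and 10.68, 10.62, 9.44, 10.24 and 8.24 in DMN livers, against 10.56 to 11.81 with a median of 11.22 in controls. NMF arrays lay wholly below the controls, and 2 DMN arrays reached the low end of their range. Fasn fell 4.04-fold in NMF (-2.01 ± 0.36 SE, adjusted p = 0.000183) and 2.61-fold in DMN (-1.39 ± 0.36 SE, adjusted p = 0.00905). The DMN call was lost without DMN 5 (adjusted p = 0.0664, -0.98) and without the 6 arrays low in GAPDH 5′ signal (0.0507), over a range of 0.000961 to 0.0664 in 26 alternatives. The dimmer Fasn probe set was called lower in both groups, at -2.88 in NMF and -2.23 in DMN.

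Fads1 and Fads2, the delta-5 and delta-6 desaturases that make long polyunsaturated fatty acids, fell in NMF and DMN livers. Fads1 was at 10.87, 10.32, 11.29, 11.39 and 10.19 in NMF livers and at 11.49, 11.28, 11.18, 11.80 and 7.95 in DMN livers, against 11.82 to 12.44 with a median of 12.29 in controls. No NMF or DMN array overlapped the controls, and DMN 5 was far below the other DMN arrays. Fads1 fell 2.61-fold in NMF (-1.38 ± 0.36 SE, adjusted p = 0.0125) and 2.74-fold in DMN (-1.45 ± 0.36 SE, adjusted p = 0.00695).

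Without DMN 5 the Fads1 difference in DMN was -0.76 (adjusted p = 0.0427, range 0.00223 to 0.0663 in 25 alternatives), and without NMF 5 the NMF call was lost (adjusted p = 0.0591, range 4.12e-07 to 0.0591 in 25 alternatives). Fads2 averaged 9.24 ± 0.42 in NMF and 9.74 ± 1.39 in DMN livers (SD, n = 5 each), against 11.28 ± 0.44 in controls (n = 9). It fell 4.11-fold in NMF (-2.04 ± 0.36 SE, adjusted p = 0.000158) and 2.91-fold in DMN (-1.54 ± 0.36 SE, adjusted p = 0.00387). All NMF arrays were below the controls, while DMN 2, at 11.29, was inside their range.

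Elovl6 lengthens palmitate to stearate. ANIT livers had 8.81, 9.11, 6.31, 8.56 and 10.55, and NMF livers had 5.4, 6.28, 6.07, 6.11 and 5.83, against 6.28 to 8.56 with a median of 7.29 in controls. ANIT 3 was low and the other ANIT arrays were at or above the top control. Elovl6 rose 2.42-fold in ANIT (1.27 ± 0.45 SE, adjusted p = 0.0452) and was called lower in NMF (-1.45 ± 0.45 SE, adjusted p = 0.0382). The adjusted p ranged from 0.000427 to 0.23 in ANIT and from 0.0042 to 0.87 in NMF over 26 alternatives each, and 11 and 13 of them kept the call; a further quantile normalization ended it in ANIT (0.0561). Without the 6 arrays low in GAPDH 5′ signal both calls were lost (0.0787 in ANIT and 0.0691 in NMF). The poly-A control probe sets averaged 3.56 to 6.47, but a single one sets the top, and every other averaged at most 4.19. All the NMF values of Elovl6 lay between that one and the others, so they were low but were not shown to be at background. No fold is given there as a precaution, and the dimmer probe set of Elovl6 gave -0.23 in NMF.

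**Figure D2:**
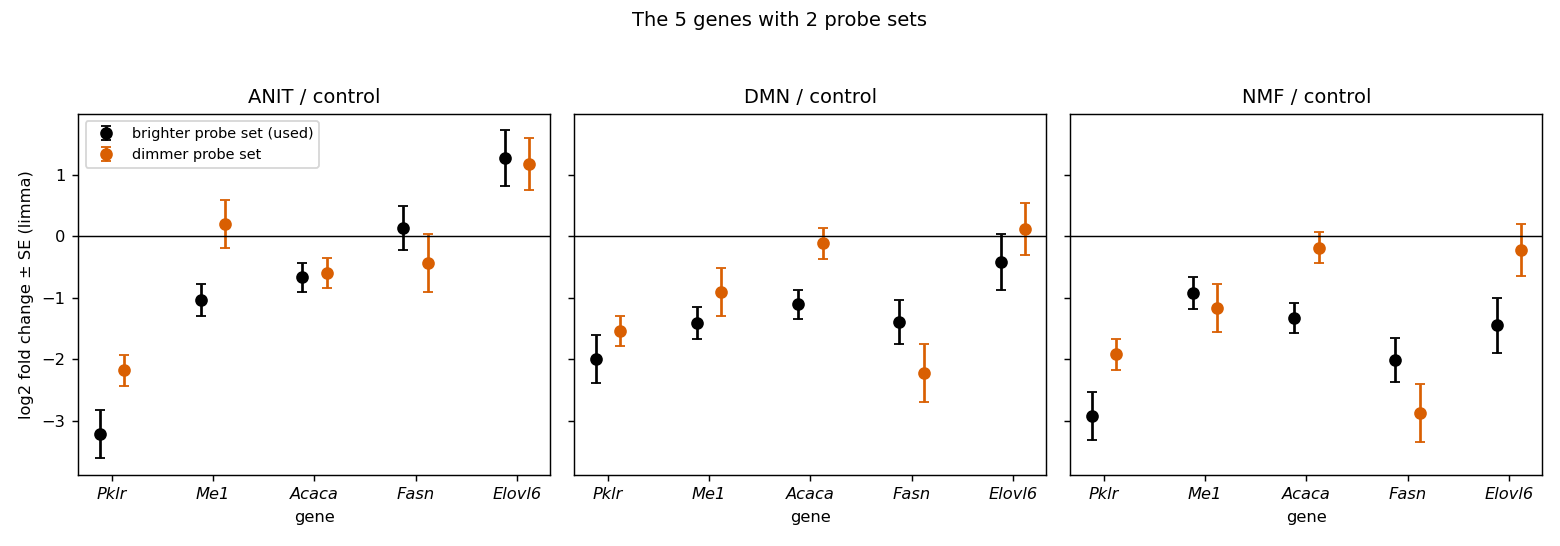
Log2 fold change against the controls ± SE (vertical axis) from limma for the brighter probe set (black) and the dimmer one (orange) of each of the 5 genes that have 2, in ANIT, DMN and NMF livers. Both probe sets of Pklr lie below 0 in all 3 panels, while the dimmer ones of Acaca (-0.12 in DMN and -0.19 in NMF) and Me1 (0.19 in ANIT) lie near 0.

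The ANIT livers thus did not move as one over the pathway. With ANIT 3 kept, Fasn was at 11.36 ± 1.08 in ANIT livers and 11.23 ± 0.43 in controls (SD, n = 5 and 9; adjusted p = 0.829), and Fads1 and Acly differed by -0.07 and -0.19. ANIT 3 was at 9.60 for Fasn, 9.33 for Acly and 8.22 for Acss2, while the other 4 ANIT arrays ran from 11.48 to 12.56, 11.73 to 12.62 and 11.41 to 12.64. Without ANIT 3, Acss2 (1.22 ± 0.32 SE, adjusted p = 0.00867) and Elovl6 (1.87 ± 0.41 SE, adjusted p = 0.00181) were called higher while Scd, Me1 and Pklr remained lower in limma. So those 4 ANIT livers had low Pklr, Me1 and Scd beside high Acss2 and Elovl6. For Me1 this holds for the brighter probe set only, as the dimmer one gave 0.19 with ANIT 3 kept.

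The array labelled Roziglitazone 2 had Pklr at 8.09, Scd at 11.12, Acss2 at 11.55 and Elovl6 at 8.91. The other 4 Roziglitazone arrays had Pklr at 10.46 to 11.68, Scd at 11.57 to 13.02, Acss2 at 10.17 to 11.02 and Elovl6 at 5.78 to 7.29. In these 4 genes, picked after their values were seen, the array stood outside its own group and on the side of the ANIT arrays. No member was called in Roziglitazone livers with it or without it, and 1 member, Pklr (-0.94 ± 0.38 SE), had an unadjusted p under 0.05 with it (0.0182). DNP livers had no member under that level, and Caerulein livers had 1, Scd.

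**Figure D3:**
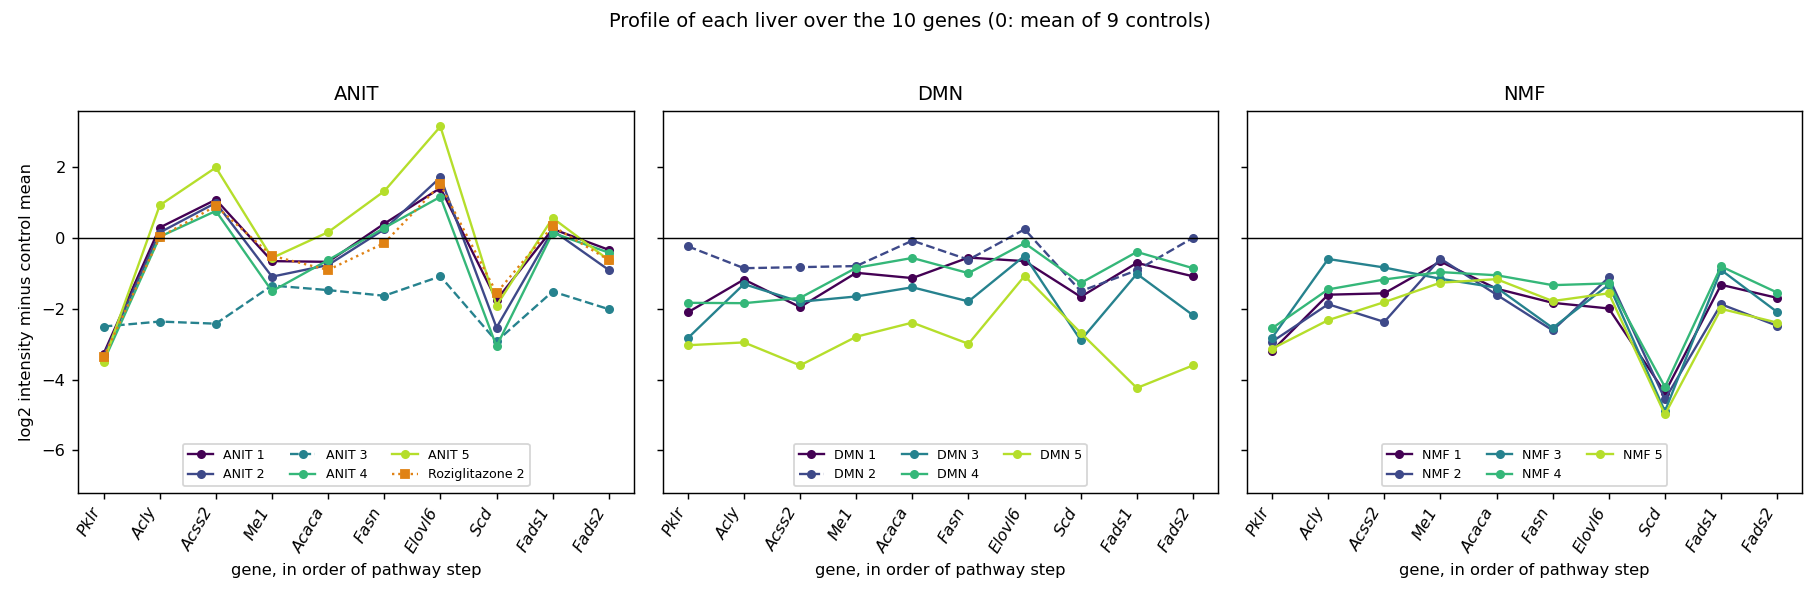
Difference of each liver from the mean of the 9 controls in log2 intensity (vertical axis) for the 10 genes in order of pathway step (horizontal axis), in ANIT, DMN and NMF livers; each line is 1 array, dashed for ANIT 3 and DMN 2, and the dotted orange line is the array labelled Roziglitazone 2. The NMF lines run close together with their lowest point at Scd. ANIT 3 lies below the other ANIT lines at Acly, Acss2, Acaca, Fasn, Elovl6, Fads1 and Fads2 and above them at Pklr.

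DMN and DNP shared vehicle and route, as did NMF and Caerulein, so these pairs were compared directly. In DMN livers 8 members were lower than in DNP livers, against 3.04% of all genes, and the exceptions were Fasn (-1.13 ± 0.41 SE, adjusted p = 0.086; its dimmer probe set was called lower in the fit over all probe sets, at -1.96 and 0.0269) and Elovl6 (0.23 ± 0.51 SE, adjusted p = 0.837). Pklr (-1.90), Scd and Acss2 (-1.87 each) differed most. Without DMN 5 the count was 4, without DNP 2 or DNP 3 it was 5, and without the 6 arrays low in GAPDH 5′ signal it was 4. In NMF livers 6 members (Pklr, Acss2, Acaca, Fasn, Scd and Fads2) were lower than in Caerulein livers, against 2.06% of all genes, with Scd 12.8-fold lower (-3.68 ± 0.37 SE, adjusted p = 1.35e-08). Acss2 (limma adjusted p = 0.0409) kept the call in only 11 of 21 alternatives.

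The toxicants were also set against each other, with vehicle or route differing in each pair. Between NMF and DMN livers Scd alone was called, lower by 6.08-fold in NMF (-2.60 ± 0.37 SE, adjusted p = 1.98e-05) where 3.0% of all genes were. The interval of the difference for Acly in that pair was -0.82 to 0.93 and that for Fads1 -0.76 to 0.90 (95%, limma), so neither sign was settled. In NMF livers 6 members (Acly, Acss2, Fasn, Elovl6, Scd and Fads1) were lower than in ANIT livers, against 3.76% of all genes. Acly (limma adjusted p = 0.0466) and Fads1 (0.0447) kept the call in only 10 and 11 of 21 alternatives. Fasn was 4.42-fold lower (-2.15 ± 0.41 SE, adjusted p = 0.000809). Elovl6 differed by -2.73 ± 0.51 SE (adjusted p = 0.000665), with its NMF values below the highest poly-A control only. Its dimmer probe set was not called in the fit over all probe sets (-1.41, 0.0775). Pklr differed by 0.30 in that pair, with an interval of -0.58 to 1.18. Between DMN and ANIT livers 2 members were called lower in DMN, Acss2 (-2.46 ± 0.48 SE, adjusted p = 0.0058) and Fasn (-1.52 ± 0.41 SE, adjusted p = 0.0351), against 1.46% of all genes.

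The count in the last of these comparisons changed with the arrays kept. Without ANIT 3 or without DMN 2, 5 members were called lower in DMN than in ANIT livers. Without ANIT 3, DMN 2 and Roziglitazone 2, 7 were called lower and Pklr was called higher (0.95 ± 0.28 SE, adjusted p = 0.031 in limma). Calls over all genes rose as well in that fit, from 152 higher and 207 lower to 536 and 580. Without any one of ANIT 1, 2, 4 and 5 or DMN 3 and 5, 1 member was called.

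**Figure D4:**
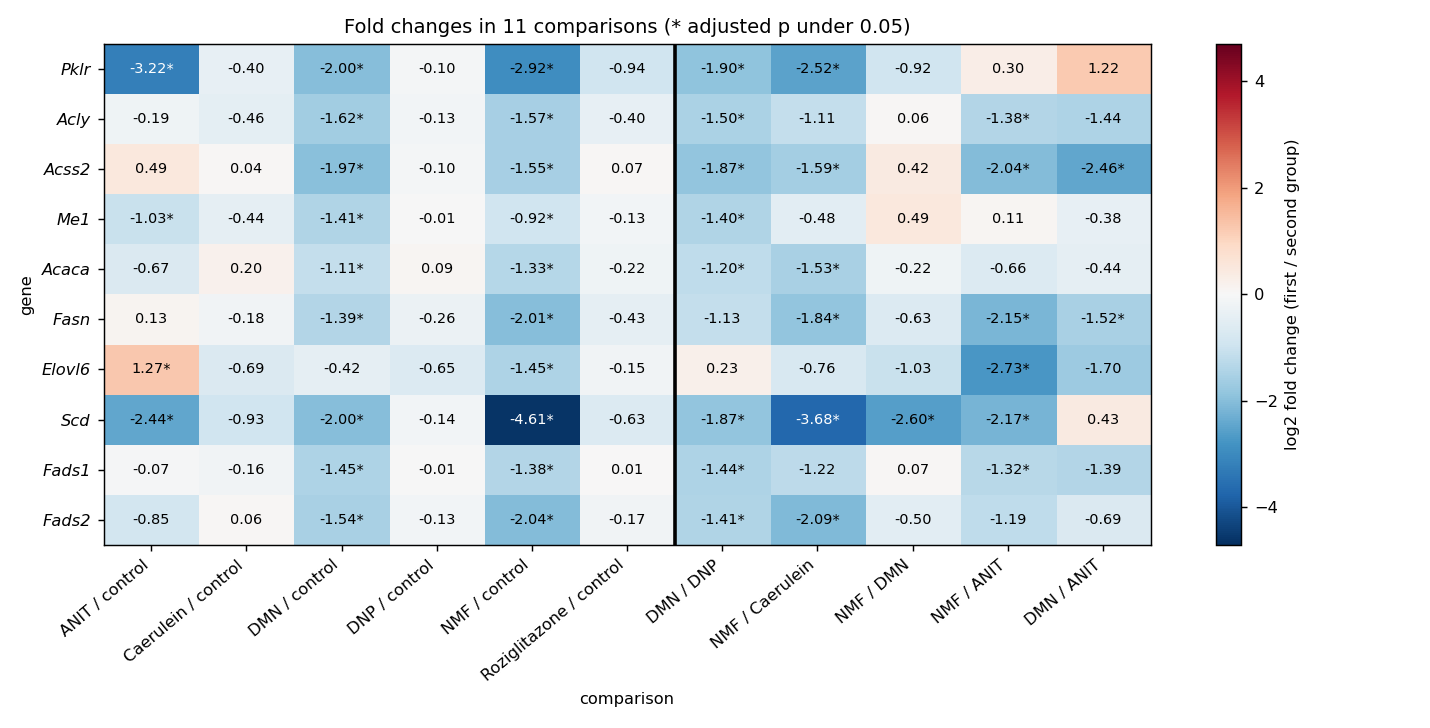
Log2 fold change from limma (colour and printed value, first group over second) of the 10 genes (rows, in order of pathway step) in 11 comparisons (columns; the line parts those with control from those between compounds). Stars mark an adjusted p under 0.05; the NMF column is starred for all 10 genes, and the Caerulein, DNP and Roziglitazone columns for none.

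Counts over other genes of the pathway are read against all genes, of which 8.19% were called higher and 8.29% lower in ANIT, 5.87% higher and 4.53% lower in DMN, and 3.85% higher and 3.63% lower in NMF livers. Of 12 regulators of lipogenesis, all measured, 1 was higher and 2 lower in ANIT livers, 1 was lower in DMN and 1 in NMF livers. Counts this small, of which a single one among 12 genes is near the share of all genes, are given as a description. Their median difference was -0.21 in ANIT, -0.41 in DMN and -0.17 in NMF, against -0.09, -0.06 and -0.05 over all genes. Insig2, a retention protein of the SREBP system, was 2.56-fold lower in ANIT (-1.35 ± 0.22 SE, adjusted p = 5.00e-05) and 1.89-fold lower in DMN (-0.92 ± 0.22 SE, adjusted p = 0.00506). Thrsp, a lipogenic nuclear protein also called Spot 14, was 1.95-fold lower in ANIT (-0.96 ± 0.19 SE, adjusted p = 0.000427) and 2.19-fold lower in NMF (-1.13 ± 0.19 SE, adjusted p = 7.25e-05). Scap, the escort of SREBP, was 1.53-fold higher in ANIT (0.61 ± 0.19 SE, adjusted p = 0.0222). The genes of SREBP-1c and ChREBP, Srebf1 and Mlxipl, named after their values were seen, were called in no group against controls. Srebf1 averaged 10.85 in ANIT, 10.70 in DMN and 10.63 in NMF livers, against 11.20 in controls. Mlxipl averaged 8.56, 8.74 and 8.42 in the same order, against 8.93 in controls.

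A further list held elongases, other desaturases and partner proteins such as Hsd17b12, Hacd2 and Cyb5a, which are neither. Of its 12 measured genes (14 listed), 3 were higher in ANIT, 2 were higher and 1 lower in DMN, and 1 was lower in NMF livers. Their medians were 0.02, -0.02 and -0.10. Elovl5, an elongase of polyunsaturated fatty acids, fell 1.94-fold in DMN (-0.96 ± 0.18 SE, adjusted p = 0.00053) and 2.08-fold in NMF (-1.06 ± 0.18 SE, adjusted p = 0.000121). Fads3, a relative of Fads1 and Fads2, rose 2.27-fold in ANIT (1.18 ± 0.18 SE, adjusted p = 1.54e-05) and 1.80-fold in DMN (0.85 ± 0.18 SE, adjusted p = 0.00139), while Fads1 and Fads2 did not rise in any group. Scd2, a close relative of Scd, rose 2.18-fold in DMN (1.12 ± 0.28 SE, adjusted p = 0.00806), where Scd fell. Elovl1 rose 1.57-fold in ANIT.

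Of 14 genes of acyl-CoA activation and glyceride synthesis, all measured, 1 was higher and 3 lower in ANIT, 4 were lower in DMN, and 1 was higher and 3 lower in NMF livers. Their medians were -0.10, -0.15 and -0.15. Lpin1, a phosphatidate phosphatase, fell 3.34-fold in NMF (-1.74 ± 0.41 SE, adjusted p = 0.00439) and 2.84-fold in DMN (-1.51 ± 0.41 SE, adjusted p = 0.0124). Its level averaged 9.58 in ANIT, 9.78 in Caerulein, 9.87 in DNP and 9.63 in Roziglitazone livers, against 10.66 in the untreated controls, and none of these 4 was called. Acsl1, the acyl-CoA synthetase, fell 2.01-fold in ANIT and 1.68-fold in DMN, and Dgat2, which makes triglyceride, fell 1.64-fold in ANIT. Named after their values were seen, Dgat2 also fell 1.54-fold in DMN, and Acsl5, another acyl-CoA synthetase, fell 1.57-fold in ANIT, 1.59-fold in DMN and 2.04-fold in NMF. Agpat3 rose 2.46-fold in ANIT, and Agpat2 rose 1.40-fold in NMF. Pnpla3 was called lower in NMF (-1.65 ± 0.49 SE, adjusted p = 0.0316) at 5.59 to 6.06, below the highest poly-A control and above all the others.

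Of 12 measured genes that supply carbon and NADPH (15 listed), 1 was lower in ANIT (Pdhb, 1.85-fold), 1 was higher in DMN (Taldo1, 1.32-fold), and 1 was higher and 1 lower in NMF (Taldo1, 1.5-fold, and Mpc1, the mitochondrial pyruvate carrier, 1.54-fold). Their medians were 0.01 in ANIT, -0.12 in DMN and 0.07 in NMF, and the counts are near the shares of all genes. Elovl7 and Tecr, of the list of elongases, other desaturases and partner proteins, were not analysed here. No gene of the 4 lists was called in Caerulein, DNP or Roziglitazone livers.

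Markers of other liver cell types moved in the same groups. In DMN livers 2 of 3 measured neutrophil markers, S100a8 and S100a9, were called higher, and the 3 averaged 6.59 to 10.32 per array, against 6.78 to 7.89 in controls. Of 3 erythroid markers, Alas2 and Hbb were lower in NMF and Alas2 was higher in DMN, and their averages ran from 7.93 to 8.47 in NMF and 9.02 to 11.03 in DMN, against 9.04 to 9.79 in controls. Pklr is also the pyruvate kinase of red cells. Of 5 macrophage markers, Lyz2 was higher in ANIT and in DMN, and Clec4f was lower in DMN and, with Csf1r, in NMF, with averages of 9.86 to 10.33 in ANIT, 9.62 to 10.71 in DMN and 9.29 to 10.23 in NMF, against 9.55 to 10.26 in controls.

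Of 5 endothelial markers, Kdr and Stab2 were lower in ANIT and in DMN, with averages of 8.0 to 9.13 and 8.05 to 8.40, against 8.53 to 9.39 in controls. Of 6 stellate cell markers, Lrat was lower in ANIT and, with Col1a1, in NMF, with averages of 7.32 to 8.08 and 7.11 to 7.51, against 7.58 to 8.34 in controls. Of 4 cholangiocyte markers, Epcam was higher in ANIT and NMF and Krt19 lower in ANIT and DMN, with averages of 6.33 to 6.95 in ANIT, 6.17 to 6.79 in DMN and 6.56 to 6.97 in NMF, against 6.30 to 7.22 in controls. Of 6 pancreatic acinar markers, Cela1 was lower in ANIT, DMN and NMF, and Pnlip and Prss1 in ANIT, at list averages of 4.93 to 5.83 in these groups, against 5.62 to 6.04 in controls. Their part in the results for the 10 genes was not tested.

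Over the 39 arrays, after each group's mean was taken out, the 45 pairs of members had a median Pearson correlation of 0.52, from -0.21 (Elovl6 with Pklr) to 0.81 (Acly with Acss2), and 27 pairs exceeded 0.5. These arrays share their normalization and the doubted libraries, so the values are a description.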

How the data were processed

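Total RNA of 39 rat livers was hybridized to GeneChip Rat230 version 2 arrays. The authors deposited 1 intensity per probe set and array, on a linear scale that runs from 5.4 to 23152.1, although the submitters' processing notes name RMA and affy (no version), and RMA usually ends in log2. The log2 was therefore taken here of the deposited intensities. Mean intensity per array was 347.8 to 363.4, while the median per array was less even, at 77.8 to 108.7. Precision is limited by how many arrays each group has.

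Of 31099 probe sets, 57 are controls, 20826 carry 1 symbol, 436 several and 9780 none; those with several or none were left out. Symbols of 20758 were brought up to date through a RefSeq gene table. The brightest probe set stood for each of the 14217 genes, with no filter. limma 3.58.1 (lmFit, contrasts.fit, eBayes) in R 4.3.3 fitted 1 mean per group to all 39 arrays, tested on simulated data first. The p-values of each of the 11 contrasts were Benjamini-Hochberg adjusted over all genes. The labels call the rats of a group biological replicates.

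The members and lists were chosen with earlier results of these data known. Named were all 10 members, the called genes of each list with the largest fold change (up to 2 per direction and contrast with control), and the 8 genes most alike in pattern. Alternatives were another scaling (median centring, a further quantile normalization), log2(intensity + 50), without the dimmest 30% of genes, the mean of probe sets, each probe set alone, array weights, the 2 groups alone, the replicate number as a block and leaving out each array. Leaving out ANIT 3, DMN 2 and Roziglitazone 2, these with DMN 5, or the 6 arrays with a GAPDH 5′ level under 8 was added after seeing the data.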

Additional observations from a re-analysis of the deposited data

Results flagged for a closer look

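Of 70 groups of values (10 genes in 7 groups), 6 had 1 array standing far from the others by Dixon's test, and chance alone gives about 1 in 20 such groups. ANIT 3 accounted for 4 of them. It was the lowest ANIT array for Acly (9.33), Acss2 (8.22) and Fads1 (10.68), and the highest for Pklr (8.96). DMN 5 was the lowest DMN array for Fads1, at 7.95 against 11.18 to 11.80 in the other 4. Control 5 was the highest control for Acss2, at 11.27.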

How the results depend on the processing

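Over 110 gene and contrast pairs, 2433 of 2605 recomputed values kept the side of the threshold and, where called, the direction. Differences called in neither fit were counted as kept whatever their sign, and some changed it. Fasn in ANIT against control, for example, ran from -0.44 to 0.57. Of the others 111 lost the call, 60 gained it and 1 lost it with a change of sign: the dimmer Me1 probe set gave 0.19 in ANIT against control. With array weights 7 members were called in ANIT against control, 2 in NMF against DMN and 6 in DMN against ANIT. Calls over all 14217 genes rose with the weights too. They were 2514 higher and 2325 lower in ANIT against control (1165 and 1179 as reported). In NMF against DMN they were 794 and 1065 (236 and 426), and in DMN against ANIT 832 and 937 (152 and 207). With the 2 groups alone 4 members were called in DMN against DNP and 0 in DMN against ANIT (limma, with 6 at an unadjusted p under 0.05). Over all genes 183 were then higher and 83 lower in DMN against DNP, and 0 were called in DMN against ANIT. DMN against ANIT gave 5 without the dimmest 30% of genes, 8 without the 3 doubted arrays, 6 without these and DMN 5, and 1 without the 6 arrays low in GAPDH 5′ signal, which gave 4 in DMN against DNP. Over all genes DMN against ANIT had, in the same order, 169 higher and 270 lower (of 9952), 536 and 580, 534 and 515, and 182 and 405. The cause was not tested. Leaving out 1 array at a time gave 3 to 5 members in ANIT, 8 to 9 in DMN and 6 to 10 in NMF against control (6 without NMF 5, which lost Acss2, Elovl6, Me1 and Fads1). It gave 4 to 9 in DMN against DNP, 5 to 6 in NMF against Caerulein, 4 to 8 in NMF against ANIT, 1 to 5 in DMN against ANIT, and 1 throughout in NMF against DMN. The other 3 compounds stayed at 0 of 10 members.

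The replicate numbers were not taken as pairing the rats: all 5 same-numbered pairs correlated above 0.1 in 1 of 21 pairs of groups, and 58 of 105 such pairs did so. With the replicate block 3 members were called in ANIT, 9 in DMN and 9 in NMF against control, 8 in DMN against DNP, 5 in NMF against Caerulein, 5 in NMF against ANIT, 1 in NMF against DMN and 2 in DMN against ANIT. The calls lost were Elovl6 in ANIT (0.129) and Acss2 in NMF (0.0546) against control, Acss2 in NMF against Caerulein (0.0599) and Fads1 in NMF against ANIT (0.0537, adjusted p in each). Median centring moved the calls over all genes to 1303 higher and 951 lower in ANIT (1165 and 1179 as reported), 888 and 463 in DMN (834 and 644) and 644 and 354 in NMF (547 and 516).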

Other observations

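The genes whose levels over the 39 arrays were most like the mean of the 10 members were Pon3 (Pearson correlation 0.86), Abhd1 (0.85), Nsdhl, Slc66a2 and Ccdc80 (0.83 each), and Pam, Col3a1 and Suox (0.82 each). The arrays share their normalization and the doubted libraries, and the correlations are descriptions over group differences and spread within groups together. Pon3, a lactonase of the liver, averaged 10.68 in NMF, 11.08 in DMN and 11.38 in ANIT livers, against 11.90 in controls. Nsdhl, an enzyme of cholesterol synthesis, averaged 10.88 in NMF, 10.86 in DMN and 11.72 in ANIT livers, against 11.50 in controls, and correlated at 0.88 with the members once group means were taken out. Col3a1, a fibrillar collagen, averaged 10.73 in NMF, 10.70 in DMN and 11.33 in ANIT livers, against 11.79 in controls.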
